A study of Mus musculus with 12 samples.

Results

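Bone-marrow-derived dendritic cells labelled as lacking the 3 Vav genes were compared with wild-type (WT) cells, both without stimulation. The comparison takes in 6 of the 12 libraries of the series: WT libraries 1, 2 and 4 and libraries 1, 2 and 5 labelled Vav1/2/3-/-, called the libraries labelled KO below, numbered as in the library names. All cells were of strain C57BL/6 and were grown from marrow. The cells of the other 6 libraries had been given curdlan for 3 hours, a dose the labels give as 200 mg/ml. The labels name no age, no sex and no origin of the replicates as separate animals or cultures, so p-values measure only the spread between libraries, which may be technical. Each group ran on a lane of its own (lane 5 for WT and lane 6 for KO without curdlan), which means that genotype and lane cannot be told apart.

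Vav1, Vav2 and Vav3 encode guanine nucleotide exchange factors that switch on small GTPases such as Rac once Src and Syk family kinases have phosphorylated them. In myeloid cells they act behind integrins, Fc receptors and C-type lectins such as Dectin-1, the curdlan receptor, through which signals reach Card9 and NF-kB. Dendritic cells grown from marrow are antigen-presenting cells, and such cultures commonly also hold macrophages, granulocytes and their precursors. The unstimulated comparison asks how the genotypes differed before any ligand was added.

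Each of the 6 libraries held between 41421718 and 61217861 counts. Of 37991 genes, 18981 passed a filter on low counts, and these held 99.97% of the counts of each of the 6 libraries. Levels are given in CPM, counts scaled to a common library size, and changes as log2 fold changes, KO minus WT. Adjusted p-values come from the quasi-likelihood test of edgeR, with the Benjamini-Hochberg method over all genes tested. Genes with an adjusted p under 0.05 are called higher or lower. The spread between libraries of 1 group exceeded sampling noise in all 6 pairs (chi-square over its degrees of freedom at least 9.92), so no pair was counted as 1 library, which does not show that they came from separate cultures.

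The targeted genes were not lower in the libraries labelled KO. Vav2 measured 66.1, 70.8 and 65 CPM in the WT libraries and 276, 285 and 287 CPM in those labelled KO, which is a log2 difference of 2.07 (SE 0.085, adjusted p = 7.45e-09). Vav1, the family member typical of blood cells, measured 135, 131 and 133 CPM against 198, 232 and 205 CPM, or 0.67 higher on the log2 scale (SE 0.10, adjusted p = 0.00021). All libraries labelled KO lay above all WT libraries for both genes. Vav3 measured 21.6, 28.9 and 28.3 CPM against 38.3, 31.5 and 40 CPM, a log2 fold change of 0.48 (adjusted p = 0.0225) that no longer passed without WT 1, KO 1 or KO 5 (adjusted p = 0.0944, 0.0643 and 0.0741) or when counts were scaled only to library totals (adjusted p = 0.11). The counts cover whole genes, so transcript from outside a deleted part cannot be separated from intact transcript. The direction of every difference below rests on the labels.

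Within 5 Mb on either side of the targeted genes, the share of tested genes called was close to that of the whole genome. It was 49.3% of 67 genes around Vav1 (GRCm38 chromosome 17, 57279100 to 57328031, plus strand), 46.6% of 206 around Vav2 (chromosome 2, 27262104 to 27427033, minus strand) and 47.4% of 78 around Vav3 (chromosome 3, 109340653 to 109685698, plus strand), beside 44.4% of all genes tested. The 3 genes are annotated as protein-coding.

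The difference between the genotypes was broad. Of 18981 genes tested, 8428 were called (44.4%), 4007 higher (21.1%) and 4421 lower (23.3%) in the libraries labelled KO. Each list count below stands against these shares of 21.1% higher and 23.3% lower. A change of at least 2-fold was reached by 2387 called genes (12.6%), of which 1231 were higher (6.49%) and 1156 lower (6.09%). The median log2 fold change over all genes was -0.0099. With libraries scaled by size alone the median moved to -0.191 and the share of called genes that were higher fell from 47.5% to 26.4% (2551 higher, 7104 lower), so directions below are relative to the scaling that centres most genes.

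**Figure D1:**
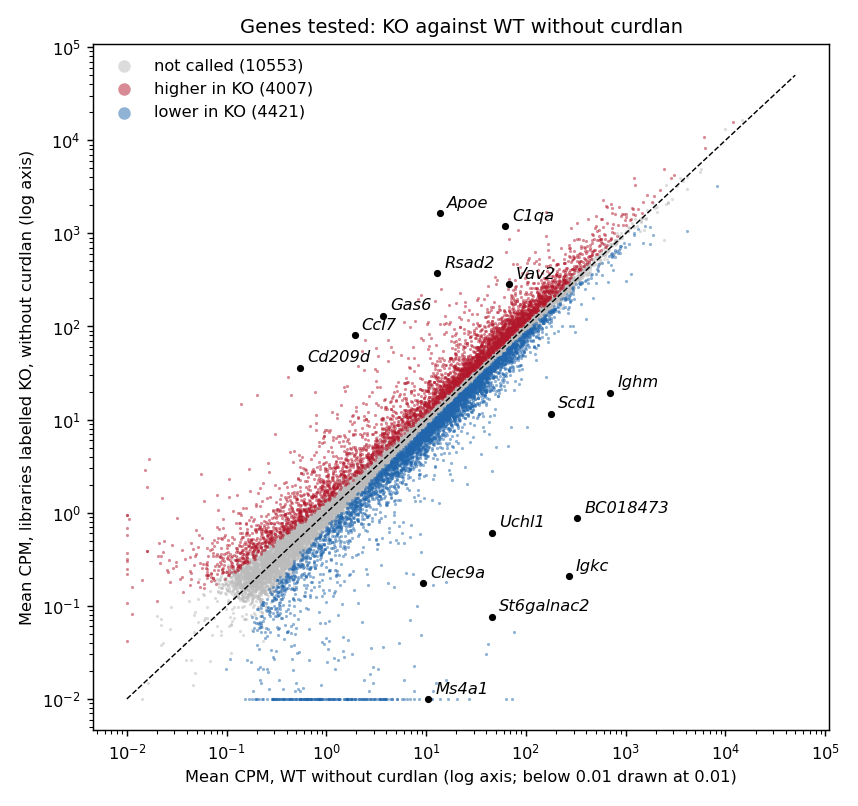
Mean level of each gene tested in the 3 WT libraries (horizontal axis, CPM, log scale) and in the 3 libraries labelled KO (vertical axis, CPM, log scale), both without curdlan, with genes called higher in red, lower in blue and the rest in grey. Apoe stands farthest above the diagonal among the labelled genes, and Igkc, BC018473, St6galnac2 and Ms4a1 lie farthest below it; means below 0.01 CPM are drawn at 0.01.

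The largest rise among genes whose log2 CPM averaged 2 or more was that of Apoe, which encodes the lipid-carrying apolipoprotein E. It measured 17.4, 12.1 and 11.8 CPM in WT and 1874, 1386 and 1650 CPM in the libraries labelled KO, or 6.89 higher on the log2 scale (SE 0.19, adjusted p = 2.13e-10). Gas6, a ligand that bridges dying cells to TAM receptors, measured 3.6, 3.73 and 3.68 CPM against 150, 152 and 90.5 CPM (log2 fold change 5.15). Both genes were low in all WT libraries and high in all libraries labelled KO. The smallest adjusted p among the rises, over the same genes, were those of Ankrd33b, an ankyrin repeat gene, from 10.4 ± 0.50 to 112 ± 3.3 CPM (SD, n = 3), and of Slc9a9, an endosomal sodium-proton exchanger, with a log2 fold change of 3.86. Retnla, a secreted product of alternatively activated macrophages, varied widely, with 3.14, 2.07 and 2.12 CPM in WT and 40.1, 5.18 and 168 CPM in the libraries labelled KO. Its log2 fold change of 4.86 (adjusted p = 0.00966) dropped to 3.21 without KO 5.

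Among the falls, Uchl1, a ubiquitin hydrolase best known from neurons, measured 46.3, 50.7 and 40 CPM in WT and 0.596, 0.289 and 0.952 CPM in the libraries labelled KO (log2 fold change -6.17, SE 0.30, adjusted p = 2.69e-08). Kcp, a secreted regulator of BMP signalling, went from 50.5, 45.2 and 41.7 CPM to 2.92, 2.48 and 2.98 CPM (-4.03). Ear2, an eosinophil-associated ribonuclease also made by other myeloid cells, had a log2 fold change of -3.66, and Clu, the extracellular chaperone clusterin, one of -3.61. Flt1, a VEGF receptor, measured 61.9, 81.1 and 70.2 CPM against 8.65, 10.4 and 6.01 CPM (-3.09). The related receptor gene Kdr moved the other way, from 3.58, 2.68 and 2.87 CPM to 38.3, 41 and 25.2 CPM (3.51). The genotype groups did not overlap for any of these genes, which was a condition for naming most genes here and below.

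**Figure D2:**
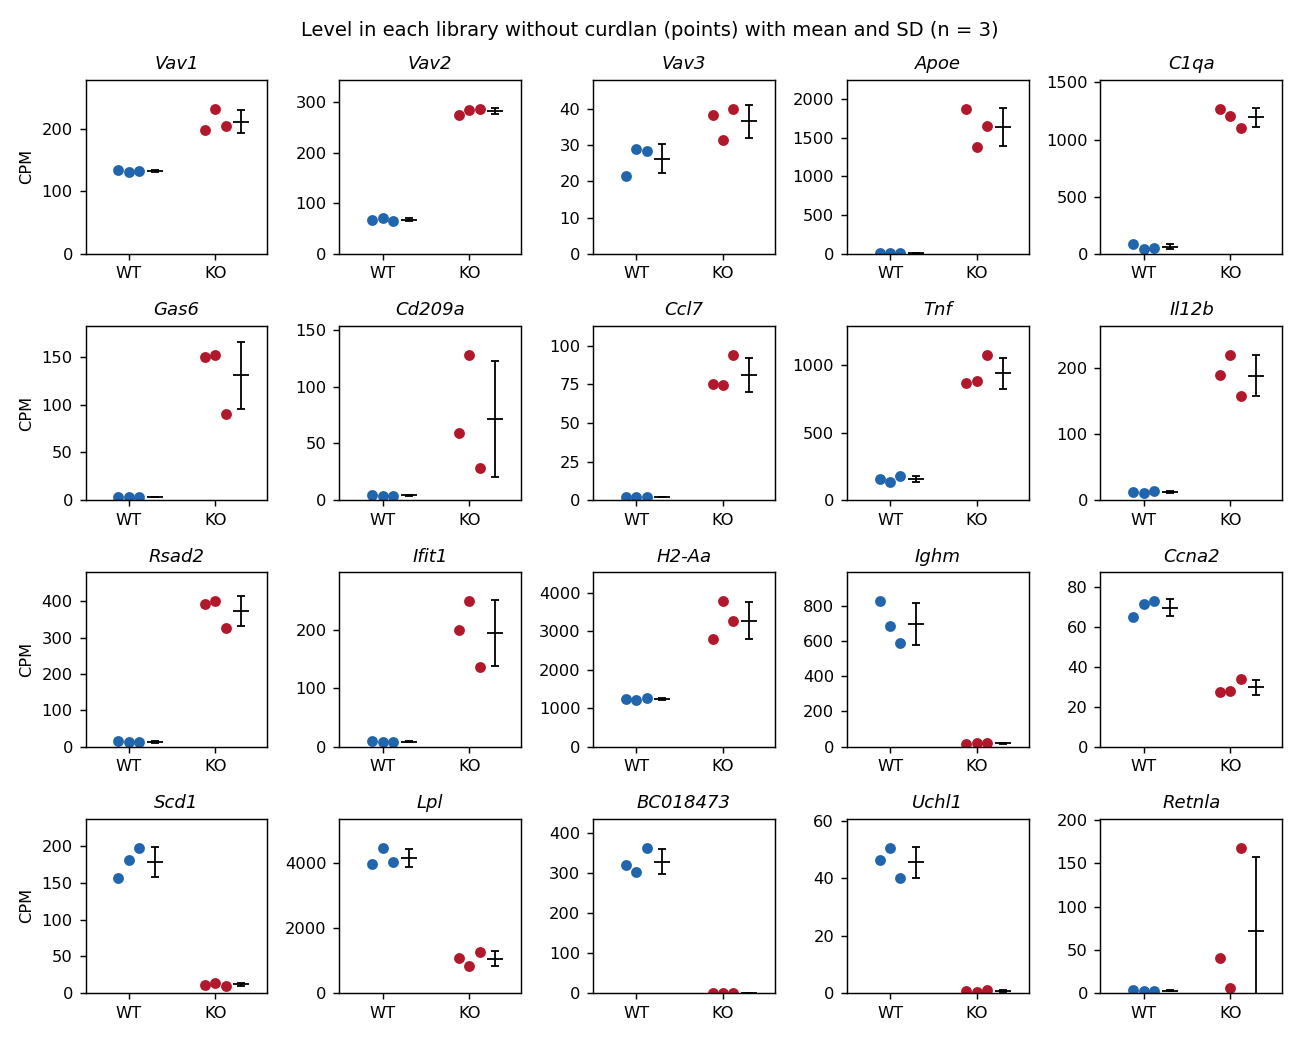
Level of 20 genes in CPM (vertical axes, each starting at 0) in the WT libraries (blue points) and the libraries labelled KO (red points) without curdlan, with the mean and SD of each group (n = 3) in black. The points of the groups do not overlap in any panel, a condition on which most of these genes were chosen. The spread within KO relative to its mean is widest for Retnla, whose lower error bar is cut at 0.

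Genes of the Vav pathway itself changed in part. Of 45 listed kinases, adapters, GTPases and their regulators, 43 were tested, 17 were higher and 7 lower. Over all genes tested 21.1% were higher and 23.3% lower. The median of 0.05 turned to -0.13 with scaling by library size alone (11 higher and 11 lower). Src, the founding member of the kinase family that phosphorylates Vav proteins, rose most, from 48.5, 43.1 and 41.2 CPM to 161, 133 and 157 CPM (log2 fold change 1.77, SE 0.096, adjusted p = 6.37e-08). Pik3r5, a regulatory subunit of PI3-kinase gamma, rose by 1.14, the Src family kinase Lyn by 0.91, the adapter Lcp2 (SLP-76) by 0.71 and the kinase Syk by 0.65. The groups were apart for all 5 genes, which for most was a condition of their choice. The exchange factor Dock2, which activates Rac, was the largest fall, at -0.64.

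C-type lectin receptors, which bind sugars on microbes and dying cells, moved in both directions. Of 30 tested members 18 were higher and 8 lower, and 11 of the higher and 4 of the lower members changed at least 2-fold. Over all genes tested 21.1% were higher and 23.3% lower, and the lower share of this list lies near the latter. Clec7a, which encodes Dectin-1, measured 746, 767 and 713 CPM in WT and 565, 658 and 532 CPM in the libraries labelled KO. Its log2 fold change of -0.34 (adjusted p = 0.0279) did not pass without KO 1, KO 5, WT 1 or WT 2 (adjusted p from 0.0648 to 0.101). Clec9a, the receptor for exposed actin on dead cells carried by cross-presenting dendritic cells, was the largest fall, from 11.1, 8.51 and 8.36 CPM to 0.0596, 0.193 and 0.275 CPM (-5.70, adjusted p = 2.14e-07). Clec4a1, also known as DCIR4, rose from 7.29, 6.85 and 8.14 CPM to 53.7, 70 and 57.9 CPM (3.03). For Clec9a and Clec4a1 the values of the groups were several-fold apart, and for Clec7a they were adjacent.

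The 5 Cd209 genes that passed the filter, relatives of human DC-SIGN that lie next to each other on chromosome 8 (GRCm38, 3743397 to 3954746), were all higher in the libraries labelled KO. Cd209a measured 4.75, 3.75 and 4.01 CPM in WT and 59, 128 and 28.5 CPM in the libraries labelled KO (log2 fold change 4.10, SE 0.56, adjusted p = 8.94e-05). Cd209d measured 0.585, 0.533 and 0.518 CPM against 29.5, 65 and 14 CPM (6.04), and Cd209e 0.0999, 0.15 and 0.173 CPM against 13.7, 25.3 and 4.8 CPM (6.68). Cd209c rose by 2.46. Cd209b had no count in WT and 134 counts in the libraries labelled KO, at least 57.3-fold higher against a floor of 3 counts over the WT group. Cd209b and Cd209e passed the low-count filter only through libraries labelled KO, so their direction was fixed by that filter. Of all genes tested 21.1% were higher. In each of these genes KO 2 held the most and, Cd209b apart, KO 5 the least, and these related copies may share reads in the authors' counting.

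Receptors of other classes were mostly higher. Of 27 tested Fc receptor and ITAM adapter genes, which carry activating or inhibitory signals, 19 were higher and 1 lower, with a median of 0.51. Over all genes tested the shares were 21.1% higher and 23.3% lower. Among 25 Toll-like receptor and adapter genes 19 were higher and 1 lower (3 lower with scaling by library size alone). Tlr1, a receptor for bacterial lipopeptides, rose from 5.88, 5.43 and 5.39 CPM to 47.1, 42.4 and 57.9 CPM (log2 fold change 3.14, SE 0.14, adjusted p = 1.52e-08). Ly86, which encodes the secreted partner MD-1 of the Toll-like protein RP105, rose by 2.32, and Tlr9, the sensor of unmethylated DNA, by 2.24. The single lower member was Tlr4, the endotoxin receptor, at -0.50.

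Most inflammatory cytokine genes tested were higher in the absence of any stimulus. Of 26 listed genes 25 were tested, 17 were higher and 2 lower, and the median was 1.08. The shares of all genes tested were 21.1% higher and 23.3% lower. Tnf measured 160, 138 and 178 CPM in WT and 868, 881 and 1076 CPM in the libraries labelled KO, or 2.57 higher on the log2 scale (SE 0.18, adjusted p = 4.41e-07). Il12b, a subunit common to IL-12 and IL-23, went from 12.1, 11 and 13.5 CPM to 189, 220 and 158 CPM (3.95, adjusted p = 2.78e-07). The libraries labelled KO stood above all WT libraries in both genes. Lower-level members rose as well, with Il23a at 2.96, Il27 at 2.99, Ifnb1, the gene of interferon beta, at 3.76, and Il6 at 1.79. The 2 that fell were Il10, a cytokine that restrains inflammation, from 1.73, 1.47 and 1.31 CPM to 0.0795, 0.144 and 0.33 CPM (-2.97), and Il33, an alarmin, at -2.64.

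Chemokine genes showed a larger median, 2.01 over 26 tested of 30 listed, with 18 higher and 2 lower (5 lower with library-name numbers as a block, 1 without WT 2 or KO 5), and all 18 that were higher had changed at least 2-fold. Among all genes tested 21.1% were higher, 6.49% with a change of at least 2-fold, and 23.3% lower. Ccl7, which attracts monocytes, measured 2.07, 1.87 and 1.81 CPM against 75, 74.4 and 93.8 CPM, or 5.40 higher on the log2 scale (SE 0.17, adjusted p = 6.55e-10). Ccl12, of the same gene cluster, measured 0.457, 0.433 and 0.449 CPM against 14.7, 21.1 and 18.7 CPM (5.34). Ccl8 went from 3 counts over the WT group to 520 counts, a ratio of 222 in CPM with an exact 95% counting interval of 75.7 to 1082. Ccl8, counted among the 18, passed the low-count filter only through libraries labelled KO, so its direction was fixed by that filter. Ligands of CXCR2 on neutrophils rose by 3.84 (Cxcl5), 2.74 (Cxcl1) and 2.20 (Cxcl2), and Cxcl10, a ligand of the receptor CXCR3 on T cells, by 3.18. The lower pair comprised the CCR4 ligands Ccl17, at 1963, 1966 and 1686 CPM against 974, 1031 and 904 CPM (-0.95), and Ccl22 (-0.39), which did not pass without WT 2 or KO 5 (adjusted p = 0.0504 and 0.0558).

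NF-kB subunits and feedback genes rose almost throughout. Of 27 tested members 25 were higher and 0 lower, with a median of 0.93. Nfkbiz, a nuclear IkB protein, went from 88.4, 82.8 and 100 CPM to 346, 361 and 419 CPM (log2 fold change 2.05), and Icam1, an adhesion receptor and classic target, from 315, 330 and 337 CPM to 1362, 1439 and 1109 CPM (1.99). Tnfaip2 rose by 1.62 and Cd40, the receptor for T cell help, by 3.32, from 20.3, 14.9 and 16 CPM to 155, 247 and 109 CPM. The adjusted p of these 4 genes ran from 5.57e-08 to 1.26e-05. Immediate-early genes were higher in 18 of 36 cases and lower in 4, with a median of 0.41. For both lists the shares of all genes tested are 21.1% higher and 23.3% lower.

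Type I interferon response genes showed the most uniform difference of the lists. All 43 listed genes in the count table were tested, 42 were higher, 36 of them at least 2-fold, 0 were lower, and the median was 2.25. Rsad2, which encodes the antiviral enzyme viperin, measured 15.4, 11.5 and 11.5 CPM in WT and 393, 400 and 328 CPM in the libraries labelled KO (log2 fold change 4.86, SE 0.35, adjusted p = 5.1e-07). Ifit1, a protein that binds foreign RNA caps, measured 9.2, 7.81 and 7.72 CPM against 201, 249 and 136 CPM (4.56). Its neighbour Ifit2 rose by 4.63, Oasl1, a regulator of interferon production, by 4.17, the ubiquitin-like modifier Isg15 by 3.04 and the transcription factor Irf7 by 2.77. KO 5 held the lowest Rsad2, Ifit1 and Ifit2 values among the libraries labelled KO, all above every WT value. The member that did not pass was Irf5, at 0.20 (adjusted p = 0.21), which passed with library-name numbers as a block (0.28, adjusted p = 0.0355).

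Interferon-induced genes commonly carry an interferon-stimulated response element near the start of transcription, and cytokine and chemokine genes a kappaB element. RefSeq promoters (GRCm38.p6, 250 bases before to 50 after the start) were searched on both strands for GAAANNGAAA, and for GGGANTTTCC, with N any base. The first motif was found in 20 of the 34 interferon response genes that had a promoter in the table (58.8%), against 1079 of 27025 genes with a promoter (3.99%). It stood in 5.56% of the promoters of genes called higher, 2.94% of those called lower and 3.62% of those not called. The second was found in 3 of 18 chemokine genes (16.7%), 2 of 18 cytokine genes (11.1%) and 0 of 34 interferon response genes, against 0.466% of all. The promoters below are shown because their genes are among the members described, with the matched bases in capitals on the gene's own strand. They lie at chr12:26456403-26456702 (minus strand), chr19:34640639-34640938 (plus strand), chr4:156200769-156201068 (minus strand), chr5:90890995-90891294 (plus strand) and chr5:30012864-30013163 (plus strand).
Rsad2: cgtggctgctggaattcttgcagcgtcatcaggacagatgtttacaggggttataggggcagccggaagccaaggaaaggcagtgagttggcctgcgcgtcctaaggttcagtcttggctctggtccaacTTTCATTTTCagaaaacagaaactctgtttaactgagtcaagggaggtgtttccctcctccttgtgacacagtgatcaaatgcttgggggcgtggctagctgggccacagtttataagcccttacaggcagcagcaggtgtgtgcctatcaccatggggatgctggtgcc
Ifit1: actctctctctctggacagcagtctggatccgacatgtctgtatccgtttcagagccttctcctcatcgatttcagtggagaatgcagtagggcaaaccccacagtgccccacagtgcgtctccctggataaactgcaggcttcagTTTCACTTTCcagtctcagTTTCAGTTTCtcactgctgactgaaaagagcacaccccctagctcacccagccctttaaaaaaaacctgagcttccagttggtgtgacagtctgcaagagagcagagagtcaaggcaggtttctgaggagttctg
Isg15: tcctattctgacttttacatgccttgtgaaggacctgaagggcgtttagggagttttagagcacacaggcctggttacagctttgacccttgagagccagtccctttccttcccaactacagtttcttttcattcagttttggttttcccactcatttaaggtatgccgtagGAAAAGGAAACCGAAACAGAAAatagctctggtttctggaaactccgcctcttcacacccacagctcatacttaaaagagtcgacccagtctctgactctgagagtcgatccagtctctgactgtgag
Cxcl1: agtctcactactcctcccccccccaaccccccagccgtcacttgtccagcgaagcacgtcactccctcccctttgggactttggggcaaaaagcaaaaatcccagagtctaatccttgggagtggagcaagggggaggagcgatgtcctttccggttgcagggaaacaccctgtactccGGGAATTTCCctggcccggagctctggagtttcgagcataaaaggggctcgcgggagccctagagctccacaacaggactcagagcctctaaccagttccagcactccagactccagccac
Il6: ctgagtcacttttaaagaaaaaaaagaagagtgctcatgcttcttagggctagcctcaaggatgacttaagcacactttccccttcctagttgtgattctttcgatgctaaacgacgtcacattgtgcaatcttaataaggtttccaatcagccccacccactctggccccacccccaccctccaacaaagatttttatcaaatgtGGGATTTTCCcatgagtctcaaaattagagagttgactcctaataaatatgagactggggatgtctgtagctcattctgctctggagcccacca
Rsad2 held 1 match, Ifit1 2 and Isg15 3 overlapping matches of the first motif, and Cxcl1 and Il6 held 1 match each of the second. A match describes the sequence and is no evidence of binding in these cells.

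**Figure D3:**
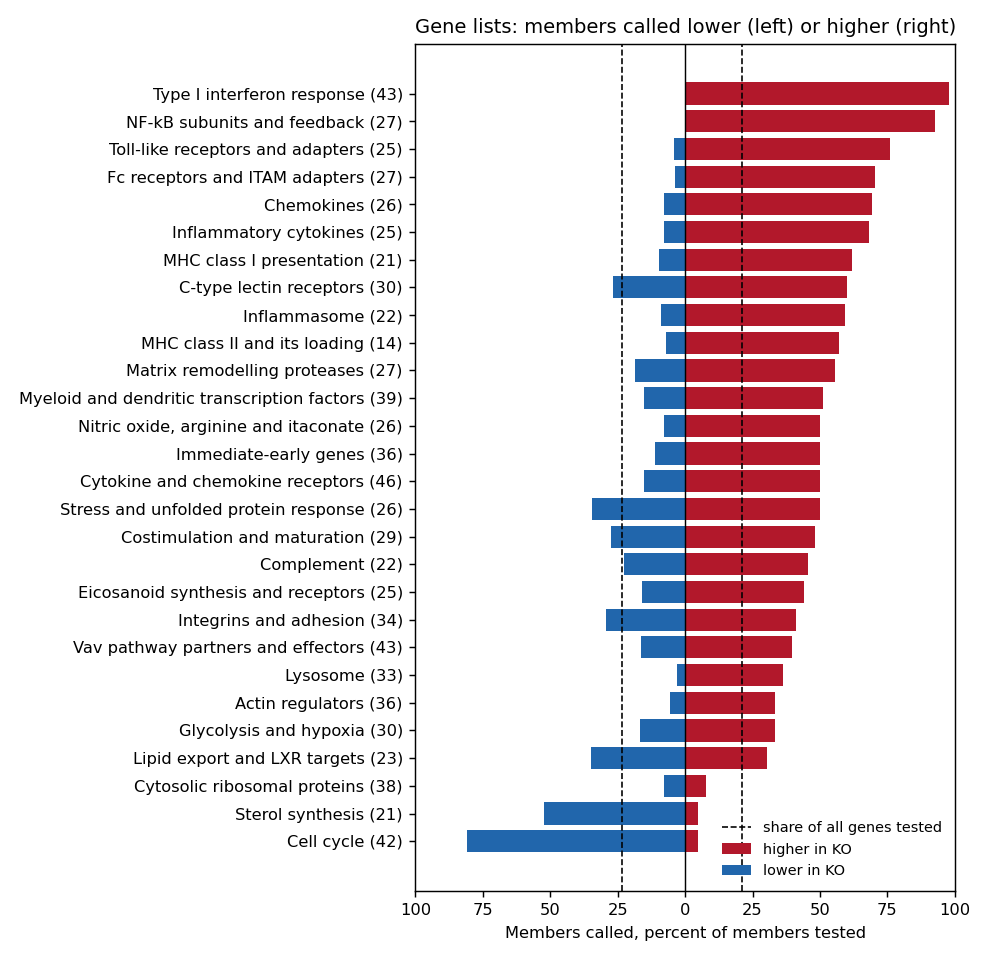
Share of tested members called lower (blue, left) and higher (red, right) in the libraries labelled KO without curdlan, in percent of the members tested (number in brackets), for 28 gene lists. Dashed lines mark the shares over all genes tested, 23.3% lower and 21.1% higher, and the bars of the interferon and NF-kB lists reach farthest right and that of the cell cycle farthest left.

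Antigen presentation genes were higher in part. Of 14 tested genes of MHC class II and its loading, 8 were higher and 1 lower (2 with scaling by library size alone), with a median of 0.68. H2-Aa, a class II chain, measured 1225, 1197 and 1252 CPM in WT and 2792, 3769 and 3255 CPM in the libraries labelled KO (log2 fold change 1.42, SE 0.11, adjusted p = 8.11e-07). H2-Eb1 rose by 1.53, and Ciita, the transactivator of class II genes, from 91.2, 113 and 106 CPM to 334, 409 and 375 CPM (1.85). MHC class I presentation genes were higher in 13 of 21 cases and lower in 2 (1 without WT 2, WT 4, KO 2 or KO 5), with a median of 0.39 and 0 past 2-fold. Costimulation and maturation genes split, with 14 of 29 higher and 8 lower. Over all genes tested 21.1% were higher and 23.3% lower, the latter near the lower share of the costimulation list. Cd83, a maturation marker, rose by 2.34, while Tnfsf4, which encodes OX40 ligand, fell from 20.3, 20.6 and 18.7 CPM to 5.05, 4.36 and 4.17 CPM (-2.13).

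Conventional dendritic cell markers moved both ways, with 7 of 25 higher and 8 lower. These counts lie near the shares of all genes tested, 21.1% higher and 23.3% lower, so they are no result about the list. Clec9a, described above, was the largest fall and Cd209a the largest rise. The lectin gene Mgl2 measured 892, 895 and 914 CPM in WT and 1698, 1739 and 1139 CPM in the libraries labelled KO (log2 fold change 0.76), and Sirpa, an inhibitory receptor of the second conventional subset, rose by 0.63. Itgax, which encodes CD11c, measured 1448, 1591 and 1424 CPM in WT and 834, 829 and 699 CPM in the libraries labelled KO (log2 fold change -0.92, SE 0.098, adjusted p = 1.22e-05). Zbtb46, a transcription factor of the conventional lineage, stood at -0.16 (adjusted p = 0.291), and Flt3, the receptor for its growth factor, at -0.35 (adjusted p = 0.0619). With scaling by library size alone both passed (adjusted p = 0.0268 and 0.00813), and Flt3 also passed with upper-quartile scaling (adjusted p = 0.0464) and without KO curdlan 4 (adjusted p = 0.0359). Lower genes included Fscn1 (-1.09), an actin bundler of mature dendritic cells, Ly75 (64, 68.7 and 70.4 CPM against 40.7, 32.5 and 28.2 CPM), which encodes the receptor DEC-205, and Ccr7 (-0.77), which directs migration to lymph nodes. The summed level of the list was 7678 to 8213 CPM in WT and 6429 to 7826 CPM in the libraries labelled KO, so the groups overlapped. Of 14 plasmacytoid dendritic cell markers 6 were higher and 5 lower, and Siglech, a defining one, was below 1 CPM in each library. In bulk RNA fewer cells of a type and less RNA per cell cannot be told apart, here and for every marker below.

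Most macrophage markers were higher. Of 31 tested markers 25 were higher and 1 lower (0 without WT 2, WT 4 or KO 2), with a median of 1.05, and the summed level was 18016 to 19288 CPM in WT and 27275 to 33795 CPM in the libraries labelled KO. C1qa, a chain of complement C1q, measured 87.7, 46.2 and 52.3 CPM against 1269, 1206 and 1104 CPM (log2 fold change 4.26, SE 0.28, adjusted p = 2.6e-07). C1qb and C1qc, the other chains, rose by 3.41 and 3.69. Adgre1, which encodes F4/80, rose from 74.2, 80.1 and 79.1 CPM to 351, 287 and 298 CPM (2.00), Maf, a macrophage transcription factor, by 3.03 and Sepp1, a selenium carrier, by 2.66. The libraries labelled KO exceeded WT in each of these genes, and most named genes were chosen for groups that did not overlap.

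Complement and lipid genes divided by member. Of 22 tested complement genes 10 were higher and 5 lower, with a median of 0.11 that turned to -0.07 with scaling by library size alone. C5ar1, the receptor for the fragment C5a, rose by 2.27. Lipid export and LXR target genes were higher in 7 of 23 cases and lower in 8. Over all genes tested 21.1% were higher and 23.3% lower. The share of complement genes that were lower lies near the latter, so it is no result about that list. Beside the rise of Apoe, Abca1, a cholesterol exporter, rose from 174, 214 and 208 CPM to 511, 346 and 518 CPM (1.21), and Nr1h3, which encodes LXR alpha, by 0.98. Lpl, lipoprotein lipase, fell from 3960, 4456 and 4029 CPM to 1059, 821 and 1271 CPM (-1.98, SE 0.16, adjusted p = 1.6e-06), and Scd1, a fatty acid desaturase and LXR target, from 156, 182 and 198 CPM to 10.7, 14.2 and 9.74 CPM (-3.95). The related desaturase gene Scd2 fell by 1.71. The macrophage list shares members with both lists, among them Apoe, C1qa, C1qb and C1qc. Most macrophage markers rose while Lpl, Scd1 and Scd2 fell, and the part of these markers in the result was not tested.

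Most cell cycle genes and part of the sterol synthesis genes were lower. Of 21 tested sterol synthesis genes 11 were lower and 1 higher (0 to 2 under other settings), with a median of -0.46. Nsdhl went from 37.5, 37.7 and 39.5 CPM to 17.8, 18.4 and 16 CPM (log2 fold change -1.14) and Dhcr7, the last step to cholesterol, from 39.1, 37.3 and 36.6 CPM to 20.1, 20.3 and 15.6 CPM (-1.01), both with groups well apart. Cell cycle genes were lower in 34 of 42 cases and higher in 2, with a median of -0.90. Ccna2, which encodes cyclin A, measured 64.9, 71.6 and 72.9 CPM in WT and 27.3, 28 and 34.1 CPM in the libraries labelled KO (-1.23, SE 0.086, adjusted p = 4.82e-07). The spindle checkpoint kinase Bub1b fell by 1.39, Ccnb1 (cyclin B) by 1.24, the topoisomerase Top2a by 0.90 and the replication clamp Pcna by 0.40. The 2 that were higher were Cdkn1a, the cell cycle inhibitor p21, from 666, 637 and 643 CPM to 2005, 2142 and 1667 CPM (1.58), and E2f8 (0.81).

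Enzymes that make inflammatory mediators were among the rises. Ptgs2, the inducible cyclooxygenase, measured 55.9, 62.1 and 71.7 CPM in WT and 740, 573 and 559 CPM in the libraries labelled KO (log2 fold change 3.30, SE 0.19, adjusted p = 8.61e-08). The prostacyclin synthase Ptgis rose by 3.40 and the prostaglandin D synthase Hpgds by 2.17, in a list of 25 tested eicosanoid genes with 11 higher (7 with scaling by library size alone) and 4 lower (2 without KO 1, 1 without KO 2 or WT 2). Among 26 genes of nitric oxide, arginine and itaconate metabolism 13 were higher and 2 lower (4 with scaling by library size alone). Nos2, inducible nitric oxide synthase, measured 24.8, 23.4 and 23.6 CPM against 132, 93.9 and 53.8 CPM (1.96), Irg1, which makes itaconate, rose by 1.94 and Hmox1, heme oxygenase, by 1.34. The groups did not overlap for Nos2, with KO 1 the highest and KO 5 the lowest of the libraries labelled KO. Of 22 inflammasome genes 13 were higher (8 with scaling by library size alone) and 2 lower, with Mefv, which encodes pyrin, at 3.75, Nlrp3 at 1.73 and the sensor of intracellular endotoxin Casp4 at 1.27.

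A run of neighbouring genes on chromosome 11 was lower in the libraries labelled KO, several of them nearly to 0. BC018473, a transcript annotated as antisense (GRCm38, 116752167 to 116759373, plus strand), measured 321, 301 and 362 CPM in WT and 0.874, 0.722 and 1.03 CPM in the libraries labelled KO, a log2 fold change of -8.53 (SE 0.15) with the smallest adjusted p of all genes, 5.48e-12. St6galnac2, a sialyltransferase (116675303 to 116694868, minus strand), went from 46.8, 46.1 and 44.3 CPM to 0.119, 0.0722 and 0.0366 CPM (-9.20), and its relative St6galnac1 (116765025 to 116775507, minus strand) from 7.22, 8 and 8.86 CPM to 0.119, 0.144 and 0.0366 CPM (-6.35). The pseudogene Gm11735 between them had 633 counts over the WT group and 0 in the libraries labelled KO, at least 164-fold lower. Cygb, which encodes cytoglobin and lies at the start of the run, fell by 3.72.

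All 8 tested genes from Cygb to Mxra7 (116645595 to 116828046) were lower, while the next genes, Jmjd6 and Mettl23, stood at 0.48 and 0.55. Of the 8, St6galnac2, St6galnac1, Gm11735 and Gm11744 passed the low-count filter only through WT libraries. Being lower was fixed by that filter for these genes. The kit does not mark strand, so reads of overlapping or antisense genes in this run cannot be told apart. Among the autosomes and chromosome X the share of genes called ran from 33.8% of 856 on chromosome X to 51.5% of 866 on chromosome 17.

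A second cluster, the Ms4a genes of chromosome 19 (GRCm38, 10978307 to 11640851), divided between a B cell member and myeloid members. Ms4a1, which encodes the B cell antigen CD20, measured 10.7, 11.6 and 9.17 CPM in WT and had no count in the libraries labelled KO, at least 513-fold lower. It passed the low-count filter only through WT libraries, so its direction was fixed by that filter. Ms4a7, a macrophage member, rose from 2.91, 2.08 and 1.83 CPM to 59.3, 71 and 32.1 CPM (log2 fold change 4.56, SE 0.38, adjusted p = 1.75e-06), Ms4a6c by 4.22, Ms4a6b by 3.89 and Ms4a6d by 2.57. Of the 11 tested genes of the cluster 8 were higher, 1 was lower and 2 did not pass. These paralogs may share reads.

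Transcripts of B cells were far lower in the libraries labelled KO, many at or near 0. Of 29 listed B cell markers 19 were tested, 16 were lower and 0 higher (1 with library-name numbers as a block), with a median of -4.06, or -3.70 with genes of 3 or fewer counts at their bound. Their summed level was 981 to 1369 CPM in WT and 73.1 to 88.1 CPM in the libraries labelled KO. Ighm, the constant region of IgM, measured 824, 684 and 585 CPM against 16.5, 22.6 and 19.1 CPM (log2 fold change -5.17, SE 0.19, adjusted p = 3.05e-09), and Igkc, the kappa light chain, 312, 276 and 217 CPM against 0, 0.53 and 0.0916 CPM. Jchain, which joins IgM and IgA, had 14543 counts over the WT group and 7 in the other. All 58 tested immunoglobulin V genes were lower, 47 of them without a count in the libraries labelled KO. Genes without a count there, and also Jchain, Cd79a and Pou2af1, passed the low-count filter only through WT libraries, so being lower was fixed by that filter. The 58 V genes together summed to at most 0.361 CPM in a library labelled KO without curdlan. The same therefore holds for most V genes that had a count there. Cd79a, a subunit of the B cell receptor, fell by 6.39, and the B cell factor Pou2af1 had 2189 and 2 counts, a ratio of 853 in CPM with an exact 95% counting interval of 236 to 7046.

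Markers of other cell types differed as well. Mast cell and basophil markers were higher in 10 of 15 tested cases and lower in 0, with summed levels of 121 to 129 CPM in WT and 361 to 523 CPM in the libraries labelled KO. Among them Cpa3, a mast cell protease, measured 7.12, 6.3 and 6.79 CPM against 35.6, 25.2 and 48.2 CPM (log2 fold change 2.43), Hdc, which makes histamine, rose by 2.81 and the basophil protease Mcpt8 by 2.52. Neutrophil markers were higher in 24 of 29 cases and lower in 1, with summed levels of 6868 to 8315 CPM against 10148 to 14856 CPM, the highest being KO 5. Examples are the secreted protein Retnlg (1.81), the cystatin Stfa3 (1.78) and the granule enzyme Mpo (1.63). Each of these 6 markers lay higher in all libraries labelled KO, and non-overlap was a condition for naming most genes.

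T cell markers were tested in 9 of 15 cases, with 3 lower and 2 higher, and summed to 11.3 to 13.9 CPM in WT and 16.1 to 23.9 CPM in the libraries labelled KO. The T cell genes Cd3e, Cd3g and Trac had too few counts to be tested. Lck, a kinase of T cells also found in B cell subsets, fell by 2.80. The 2 that were higher were Cd28, a costimulatory receptor of T cells, from 1.61, 1.82 and 2.02 CPM to 11.8, 13.1 and 7.56 CPM (2.57), and Cd4 (2.42), a coreceptor that some myeloid cells also carry. Of 7 tested NK and innate lymphoid genes 2 were higher and 2 lower (4 lower without KO 2 or with scaling by library size alone). The counts of the T cell and NK lists lie near the 21.1% higher and 23.3% lower of all genes tested. They are no result about these lists. Klrk1, which encodes NKG2D, fell from 6.35, 7.05 and 7.62 CPM to 0.636, 1.06 and 0.494 CPM (-3.29), while Gzmb, granzyme B, rose from 0.271, 0.283 and 0.363 CPM to 6.76, 8.81 and 5.6 CPM (4.52). Stromal and endothelial markers were higher in 11 of 18 cases and lower in 3, with summed levels of 75.1 to 81.6 CPM in WT and 146 to 162 CPM in the libraries labelled KO. Osteoclast markers were higher in 1 of 10 cases and lower in 3, namely Ctsk, cathepsin K (-2.18), and the fusion genes Ocstamp (-2.14) and Dcstamp (-1.80). The share called lies near the 44.4% of all genes tested, so it is no result about this list. Its summed level overlapped, at 829 to 881 CPM in WT and 689 to 925 CPM in the libraries labelled KO. The part of B cell, macrophage, mast cell and neutrophil transcripts in the other differences was not tested.

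**Figure D4:**
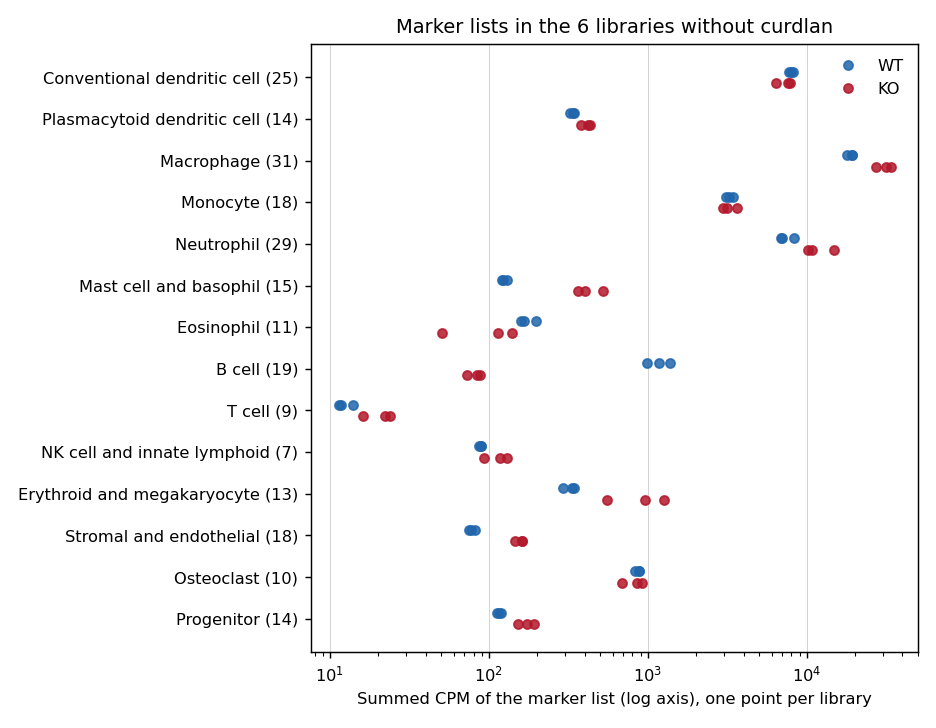
Summed level of each marker list (CPM, log axis; tested markers in brackets) in the 3 WT libraries (blue) and the 3 libraries labelled KO (red) without curdlan. The B cell list lies at 981 to 1369 CPM in WT and 73.1 to 88.1 CPM in the libraries labelled KO, and the macrophage, neutrophil and mast cell lists lie higher in all libraries labelled KO.

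Whether the genotype difference was the same in both states was tested as the difference of the differences. Of 18981 genes 989 were called (5.21%), 684 with a more positive value without curdlan and 305 with a more negative one, and 600 were also called without curdlan. Libraries of the same genotype and library-name number tended to deviate together between the states, as did some of different numbers. With that number within each genotype as a block 2671 were called, 964 of them among the 989, in a fit with 3 residual degrees of freedom. Il12b had a genotype difference of 3.95 without and 0.58 with curdlan, on the log2 scale (difference 3.37, adjusted p = 0.00105, edgeR's quasi-likelihood test). For Tnf the values were 2.57 and 0.42, for Ptgs2 3.30 and 0.66, and for Ccl7 5.40 and 3.07. Mean Tnf in the unstimulated libraries labelled KO was 942 CPM, between the WT means without (158 CPM) and with curdlan (2996 CPM). Flt1 (-3.09 and -1.73) and Dcstamp (-1.80 and -0.92) differed more negatively without curdlan.

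For Apoe (6.89 and 6.73), Gas6 (5.15 and 5.11), C1qa (4.26 and 4.30), Vav2 (2.07 and 2.05) and Scd1 (-3.95 and -3.90) the values without and with curdlan lay close together, and no difference between the states was called, which does not show that they are equal. None of the 5 was called with the block either (adjusted p from 0.135 to 0.895). The count of 989 moved to between 366 (without WT curdlan 2) and 2837 (without KO curdlan 2) when 1 library was left out, and fell to between 382 and 630 without WT 1, WT 2, WT 4, KO 1, KO 5, WT curdlan 4 or KO curdlan 4. In the authors' deposited table that is named an interaction, the log2 fold change of Il12b is 3.96 and that of Apoe 6.90. Over all genes tested the values of that table lie within 0.1 of KO against WT without curdlan in 98.6% of cases, and within 0.1 of the difference between the states in 13.9%.

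**Figure D5:**
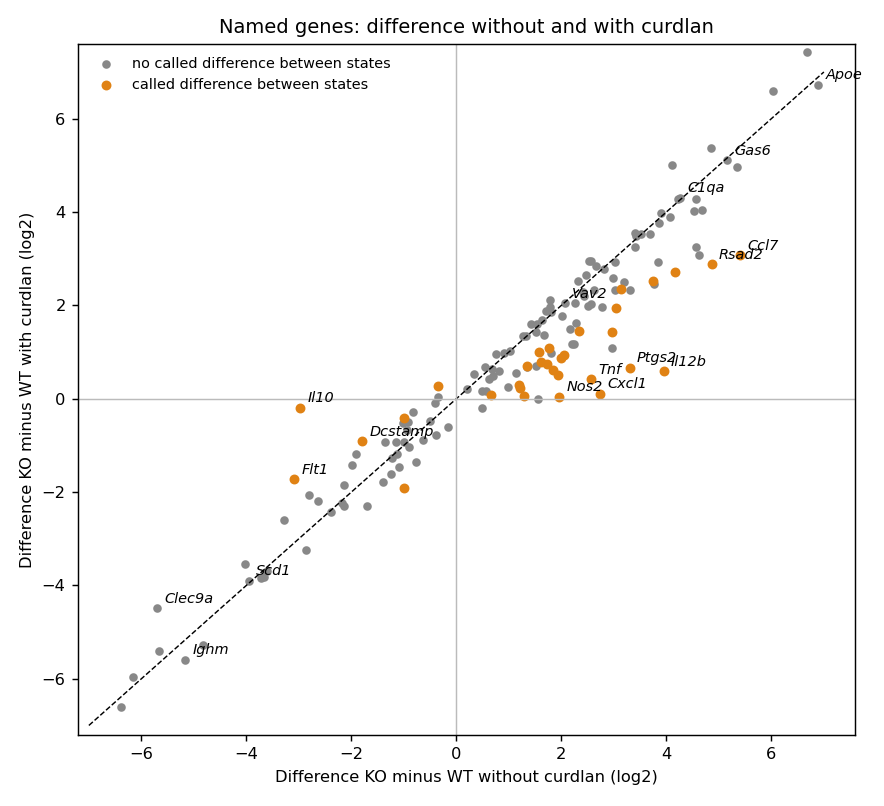
Genotype difference (KO minus WT, log2 fold change) without curdlan (horizontal axis) and with curdlan (vertical axis) for the named genes, orange where the difference between the states was called. The axes leave out a few genes with larger values. The dashed line marks equal values; Il12b, Tnf, Ptgs2 and Ccl7 lie below it, and Apoe, Gas6 and C1qa lie near it.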

How the data were processed

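RNA of unstimulated and curdlan-treated marrow-derived dendritic cells was sequenced from TruSeq libraries, which do not mark strand, per the labels' protocols, with a HiSeq 2000. The authors deposited gene counts, for which the submitters' processing notes name TopHat2 2.4.2a, featureCounts 1.4.6, SAMtools 1.2, FastQC 0.11.1 and DESeq2 1.8.2. Build and annotation were not given in the sources used here. Tables the authors deposited also hold log2 fold changes and adjusted p-values of their comparisons, and 24 further columns of per-library values were not used.

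The counts of all 12 libraries entered 1 fit with 4 group means in edgeR 4.0.16 (R 4.3.3), with its filter on low counts, TMM scaling, the two-sided quasi-likelihood test and Benjamini-Hochberg adjustment at 0.05. The steps were tested on simulated counts. Deviations from the group means correlated between libraries of the same genotype and library-name number without and with curdlan (0.395, 0.239 and 0.129 in WT 1, 2 and 4, 0.287 and 0.557 in KO 2 and 5). Pairs of different numbers reached 0.246 (KO 2 with KO curdlan 4) and 0.217 (KO 1 with KO curdlan 2), so the pairing by number is not clear-cut. KO 1 and KO curdlan 4 have no library of their number in the other state. The labels do not say what the number marks. Library totals of 41421718 to 61217861 counts give a floor of 0.016 CPM in WT and 0.020 CPM in KO for 3 counts over a group. Folds against a group at 0 use that floor, and counting intervals cover counting error only. Gene positions come from GENCODE M21 (GRCm38), matched by identifier, and promoters from RefSeq GRCm38.p6.

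The members and lists were chosen with earlier results of these data known. Named genes are the targeted genes, up to 12 largest changes in each direction and up to 6 smallest adjusted p among called genes with groups that did not overlap whose log2 CPM averaged 2 or more, and up to 4 called members per list. Syk, Clec7a, members of the 3 gene clusters and further list members were chosen after their values were seen. Some genes chosen this way are not reported here. Of the listed entries, 60 had too few counts to be tested. Other scalings, filters, tools, replicate blocks and fits without 1 library were alternatives.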

Additional observations from a re-analysis of the deposited data

Results flagged for a closer look

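The difference between the libraries labelled KO and WT was itself tested between the states, as the log2 difference without curdlan minus that with curdlan (edgeR's quasi-likelihood test, Benjamini-Hochberg adjustment). Among the 164 genes named or examined with values, 32 passed, 27 with a difference above 0 and 5 below, beside 5.21% of all 18981 genes tested. Most of the 164 were chosen for their difference without curdlan, which enters the difference tested, so neither the share nor the balance of signs is read as a result. The direction was the same for all 32 in each of the 12 fits that left out 1 library, and 19 passed in every one of these fits.

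Of the cytokine and chemokine genes, Il12b stood at 3.37, Cxcl1 at 2.64, Ccl7 at 2.33, Tnf at 2.16, Il23a at 1.54 and Il10 at -2.78. The cyclooxygenase gene Ptgs2 was at 2.64, nitric oxide synthase Nos2 at 1.92 and the itaconate enzyme Irg1 at 1.44. The interferon response genes among them were Rsad2 at 1.98, Oasl1 at 1.45 and Isg15 at 1.08. NF-kB targets stood at 1.12 (Nfkbiz), 1.13 (Icam1) and 0.82 (Tnfaip2), and the maturation marker Cd83 at 0.89.

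Inflammasome genes stood at 1.24 (Mefv) and 0.99 (Nlrp3), and the class II transactivator Ciita at 1.23. Receptors and kinases had values of 0.92 (Ly75), 0.78 (Tlr1), 0.67 (Src) and 0.57 (Syk), and Clec7a, which encodes Dectin-1, had -0.63. Metabolic and stress genes stood at 1.24 (Hk2), 0.97 (Abca1), 0.89 (Trib3) and 0.64 (Hmox1), and Cdkn1a at 0.58. Flt1 at -1.37, Dcstamp at -0.88 and Ccr2 at -0.58 completed the values below 0.

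The call depended on single libraries for 13 of them: Clec7a, Il23a, Il10, Cxcl1, Rsad2, Isg15, Icam1, Tlr1, Ciita, Hmox1, Cdkn1a, Ly75 and Abca1 did not pass in at least 1 fit without a library. Their highest adjusted p in those fits ran from 0.0563 (Ciita) to 0.124 (Cdkn1a). With library-name numbers within each genotype as a block all 32 passed in the same direction, and 70 of the 164 passed. That fit has 3 residual degrees of freedom, and on simulated counts it made 11 false calls against 6 without the block. It uses the same counts, so it is no separate evidence for the 13 calls.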

How the results depend on the processing

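The count of 8428 genes was 8317 with DESeq2, 8381 with its size factors in edgeR, 8477 with upper-quartile scaling, 8256 without a filter, 8365 with at least 10 counts in every library of a group and 8434 with the 6 unstimulated libraries alone. Scaling by library size alone gave 9655, with 2551 higher and 7104 lower, and a median of -0.191 over all genes. Requiring at least 2-fold left 2387, of which 1231 were higher and 1156 lower. Without 1 library the count ran from 7099 to 8861, the higher genes from 3369 to 4500 and the lower from 3730 to 4681. The 989 genes that differed between the states became 2252 with DESeq2, 2002 with library-name numbers as a block, 2671 with these numbers as a block within each genotype (an alternative chosen after seeing the data), 203 at 2-fold or more, and 366 to 2837 without 1 library. The cause of these shifts was not tested. With the replicate block, library-name numbers gave 8692 genes and title numbers 8396 for KO against WT without curdlan. Between the genotypes, same-numbered libraries without curdlan did not deviate together (title numbers, correlations of -0.126, -0.0374 and 0.0125), so the numbers do not pair WT with KO. The block lowered the log2 fold change of Retnla to 2.87 and that of Cx3cr1 to 1.01. Among the single-gene values under an alternative, 3428 stayed on their side of the threshold, 11 lost the call and 5 gained it, and 0 turned direction. Of the list counts 1787 stayed within 1.5 times and 103 did not. Depth limits genes near 0.02 CPM, where a count of 0 allows a level up to the floor.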

Other observations

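Receptors for cytokines and chemokines were higher in 23 of 46 tested cases and lower in 7, with a median log2 fold change of 0.46, where 21.1% of all genes tested were higher and 23.3% lower. Ccr2, the receptor for Ccl2 and Ccl7 on monocytes, measured 326, 359 and 375 CPM in WT and 188, 170 and 171 CPM in the libraries labelled KO without curdlan (edgeR adjusted p = 1.13e-06). Cxcr2, the neutrophil receptor, rose by 1.35, from 15, 16.2 and 19.5 CPM to 42.2, 42.2 and 44.5 CPM. Cx3cr1, a fractalkine receptor, stood at 1.56, but without KO 5 it did not pass (0.99, edgeR adjusted p = 0.0731). Ccr6, a receptor on B cells and dendritic cells, fell by 4.82. Matrix remodelling genes were higher in 15 of 27 cases and lower in 5 (8 with library-name numbers as a block). Mmp27 rose by 4.07 and the protease inhibitor Serpinb2 by 2.96, while the macrophage elastase Mmp12 fell from 8783, 8624 and 7437 CPM to 3313, 3196 and 3170 CPM (-1.36) and the serpin Serpinb6b by 2.39. The libraries labelled KO did not overlap with WT in any of these 8 genes, which was a condition for naming most genes.

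Integrin and adhesion genes were higher in 14 of 34 cases and lower in 10, with a median of 0.11 that turned to -0.07 with scaling by library size alone (9 higher). Thbs1, thrombospondin, measured 941, 1277 and 1446 CPM against 3690, 3030 and 4957 CPM (1.67), and Itga3 fell by 1.90. Actin regulators were higher in 12 of 36 cases and lower in 2, which became 5 and 7 with scaling by library size alone, and 6 or 7 were higher without KO 2, KO 5 or any 1 WT library. Lysosome genes were higher in 12 of 33 cases and lower in 1 (6 and 6 with scaling by library size alone), among them the proteases Ctsl (1.33) and Ctsb (1.03). Glycolysis and hypoxia genes were higher in 10 of 30 cases and lower in 5 (2 to 9 under other settings), with Vegfa, a vascular growth factor, at 1.51, the hexokinase Hk2 at 1.29 and the aldolase Aldoc lower, from 125, 113 and 122 CPM to 57.8, 64 and 57.7 CPM. The shares of the actin, lysosome and glycolysis lists called in either direction lie near the 44.4% of all genes tested, so they are no result about these lists. Stress response genes were higher in 13 of 26 cases (7 with scaling by library size alone) and lower in 9, with the pseudokinase Trib3 at 1.19 and the serine synthesis enzyme Psat1 at -1.16.

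Transcription factors of myeloid and dendritic cells were higher in 20 of 39 cases and lower in 6, or 12 and 10 with scaling by library size alone. Gata2, active in mast cells and progenitors, rose by 2.26. Batf3, needed for cross-presenting dendritic cells, went from 18.7, 17.6 and 15.1 CPM to 9.28, 8.31 and 11.3 CPM (-0.83), and the lymphoid factor Ikzf3 fell by 2.86. Ribosomal protein genes were higher in 3 and lower in 3 of 38 cases, with a median of 0.04 that turned to -0.14 with scaling by library size alone (0 higher and 15 lower). Erythroid and megakaryocyte markers were higher in 5 of 13 cases and lower in 2 (1 without WT 2, WT 4, KO 1 or KO 2). The platelet chemokines Ppbp, at 50.7, 60.2 and 41.2 CPM against 305, 108 and 525 CPM, and Pf4 (1.79) were among them. Eosinophil markers were higher in 2 of 11 cases and lower in 5, and monocyte markers higher in 9 of 18 and lower in 4 (2 without KO 1). Of all genes tested 21.1% were higher and 23.3% lower, near the higher share of the eosinophil and the lower share of the monocyte list. Progenitor markers were higher in 3 of 14 cases (5 or 6 with a block or without KO curdlan 5), near the 21.1% of all genes, and lower in 1 (2 under several other settings). Mitochondrially encoded genes were higher in 2 of 13 cases and lower in 1 (0 to 7 under other settings). Of 3 sex-linked genes tested, 0 were called.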
